A study of Homo sapiens with 6 samples.

Results

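The miR-30 family was described across the 6 small RNA libraries of A549 cells, a human cell line long established from a lung adenocarcinoma and described in the labels as epithelial. Its members were taken by name and number 8 of the 787 mature miRNAs listed: the 5p arms hsa-miR-30a-5p, hsa-miR-30b-5p, hsa-miR-30c-5p, hsa-miR-30d-5p and hsa-miR-30e-5p and the 3p arms hsa-miR-30a-3p, hsa-miR-30c-2-3p and hsa-miR-30e-3p. The 3 SMARCA4 libraries came from A549 cells transfected with pcDNA4-SMARCA4, and the 3 empty vector libraries from A549 cells transfected with pcDNA4, with RNA from both taken at 48 h. SMARCA4, also called BRG1, is an ATPase that powers SWI/SNF chromatin remodelling, and per the labels the plasmid was meant to restore it. The plasmids were delivered with a lipid reagent, so a library can hold RNA of cells that took up none, and a change in fewer cells and a smaller change in every cell cannot be told apart. The design text calls the replicates independent. SMARCA4 mRNA was not analysed here.

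A mature miRNA is cut from a hairpin that can give a 5p and a 3p arm, and its seed, bases 2 to 8, pairs with the mRNAs that it represses. The miR-30 family is a group of abundant miRNAs of differentiated epithelial and kidney cells, known for restraining SNAI1, a driver of the epithelial to mesenchymal transition, and for targeting the autophagy gene BECN1. The family comes from pairs of neighbouring hairpins on chromosomes 1, 6 and 8.

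Mature sequences for 6 of the 8 members were found in RefSeq (GRCh38.p14). They are shown because the arms fall into 3 seed groups, and because some arms are so alike that reads of one could be counted as another. Capitals mark the seed.

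miR-30a-5p: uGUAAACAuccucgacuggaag
miR-30c-5p: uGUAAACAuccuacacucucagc
miR-30e-5p: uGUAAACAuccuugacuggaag
miR-30a-3p: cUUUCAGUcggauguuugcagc
miR-30e-3p: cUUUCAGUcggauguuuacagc
miR-30c-2-3p: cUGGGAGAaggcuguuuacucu

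The 5p arms shown share the seed GUAAACA and their first 12 bases. Counted from 1 at the 5′ end, miR-30a-5p and miR-30e-5p differ by the substitution C13U, and miR-30a-3p and miR-30e-3p by G18A. miR-30c-5p is 6 edits from either of the other 5p arms shown. Of the 689 listed miRNAs with a sequence in RefSeq, no other carried the seed GUAAACA or the seed UUUCAGU of miR-30a-3p and miR-30e-3p, while miR-30c-2-3p shared the seed UGGGAGA with miR-30c-1-3p. No sequence was found for miR-30b-5p and miR-30d-5p, so their seeds were not part of this search and they are named only. How the authors' counting treated reads that match more than 1 arm is not stated in the sources used here. The split between miR-30a and miR-30e is therefore uncertain. The likeness of miR-30b-5p and miR-30d-5p to the other arms was not measured, so their split from these may be uncertain too.

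In GRCh38 (GENCODE 29), MIR30A (chr6:71403551-71403621) and MIR30C2 (chr6:71376960-71377031) lie on the minus strand in introns of the lincRNA gene LINC00472. MIR30E (chr1:40754355-40754446) and MIR30C1 (chr1:40757284-40757372) lie on the plus strand in an intron of NFYC, which encodes a subunit of the NF-Y transcription factor. miR-30c-5p is the one member here that is made by hairpins on different chromosomes. Its hairpins are shown with their mature arms in capitals, since the 5p arm is the same in both and only the 3p arms tell them apart.

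MIR30C2: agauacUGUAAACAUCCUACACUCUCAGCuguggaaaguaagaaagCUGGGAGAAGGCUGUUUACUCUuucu
MIR30C1: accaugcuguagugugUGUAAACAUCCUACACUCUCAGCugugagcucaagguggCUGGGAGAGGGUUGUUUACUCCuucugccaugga

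The values are the authors' normalized read counts per mature miRNA, TMM-scaled according to the table's name. Recovered read totals ranged from 701885 to 1079944 in 5 libraries, and SMARCA4 replicate 2 held 7274329 reads, 8.33 times the mean of the others. SMARCA4 replicate 2 also stood apart in the let-7 and miR-98 5p arms, which made up 20.9% of its total against 6.54% to 7.78% in the other 5 libraries. Values without SMARCA4 replicate 2 are therefore given beside results that it moves. Of 7 epithelial marker miRNAs, 6 were measured, at a sum between 425 and 623 normalized counts in SMARCA4 libraries and between 356 and 677 in empty vector libraries, and miR-205-5p was not analysed here. Of 7 blood cell markers, 3 were measured, at a sum between 7962 and 14458 in SMARCA4 libraries and between 5621 and 7213 in empty vector libraries, nearly all of it miR-486-5p, while the defining markers miR-451a, miR-144-3p, miR-142-3p and miR-223-3p were not analysed here. Of 6 muscle, liver and neuron markers, miR-1-3p and miR-133a-3p were at 0 in every library, miR-9-5p ranged from 146.4 to 427.1 in SMARCA4 libraries and from 139.5 to 145.5 in empty vector libraries, and the other 3 were not analysed here. The blood and neuron sums were thus higher in every SMARCA4 library than in any empty vector library, and their part in the miR-30 results was not tested. For miR-9-5p the gap between 146.4 and 145.5 was less than 1 read, which equals 2.61 in SMARCA4 replicate 1. The log2 fold change of miR-9-5p was 0.60 with all libraries and 0.12 without SMARCA4 replicate 2.

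miR-30 levels were lower in SMARCA4 cells for 7 of the 8 arms, but 0 of the 8 passed the test over all 637 miRNAs tested (limma, Benjamini-Hochberg adjusted p under 0.05). In this comparison 1.41% of all miRNAs passed. All 8 arms were tested, and 3 of them, miR-30c-5p, miR-30e-5p and miR-30b-5p, had an unadjusted p under 0.05 and a lower level in SMARCA4 cells, against 11.3% of all miRNAs. The groups did not overlap for 4 of the 8 arms, all of them 5p arms and all lower in SMARCA4 cells, where 31.1% of all miRNAs did not overlap and 15.2% did so with lower SMARCA4 values. The median log2 fold change of SMARCA4 over empty vector was -0.47 over the 8 arms, -0.86 over the 5p arms and -0.23 over the 3p arms, against -0.05 over all miRNAs tested, of which 51.6% were below 0. Without SMARCA4 replicate 2 the medians were -0.67 over the 8 arms, -0.70 over the 5p arms and -0.66 over the 3p arms, against -0.09 over all miRNAs tested, so the gap between 5p and 3p medians rested on that library. By DESeq2 on the recovered reads 1 of the 8 arms and 3.3% of all miRNAs fell, with 212 adjusted p-values undefined and so unable to pass. In either direction, edgeR passed 0 of the 8 arms and 1.26% of all. By limma 2 of the 8 arms fell without SMARCA4 replicate 2, and 3.77% of all miRNAs did.

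**Figure D1:**
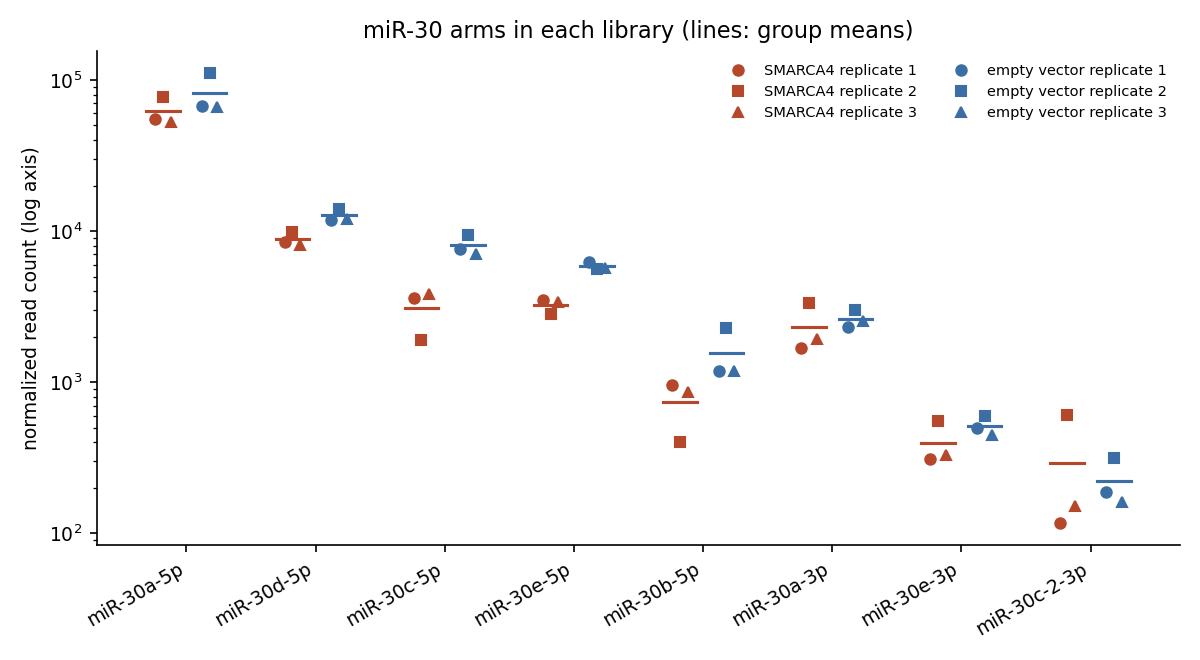
Normalized read counts on a log axis for the 8 miR-30 arms, with SMARCA4 libraries in red left of empty vector libraries in blue, a symbol for each replicate and a line at the group mean. The groups are apart for miR-30d-5p, miR-30c-5p, miR-30e-5p and miR-30b-5p and overlap for the other 4 arms.

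hsa-miR-30a-5p was the most abundant member and ranked 8 among all listed miRNAs by mean normalized count. It had 55489, 77377 and 52633 normalized counts in SMARCA4 replicates 1, 2 and 3, against 67324, 110677 and 66561 in empty vector replicates 1, 2 and 3. The groups overlapped, since SMARCA4 replicate 2 lay above empty vector replicates 1 and 3. The means were 61833 ± 13537 in SMARCA4 cells and 81521 ± 25253 in empty vector cells (SD, n = 3 each), a log2 fold change of -0.38 (SE 0.32, limma adjusted p = 0.494). The size depended on empty vector replicate 2, the highest library for this arm: without it the log2 fold change was -0.14, and without SMARCA4 replicate 2 it was -0.55. It also depended on the scaling, at -0.70 with equal library totals and -0.84 with quantile normalization (limma adjusted p = 0.143 and 0.195).

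hsa-miR-30d-5p, known as an autophagy regulator, was the second member in level. Its counts were 8466, 9783 and 8141 in SMARCA4 libraries, against 11881, 14083 and 12046 in empty vector libraries. Every SMARCA4 library lay below every empty vector library, and the spread within each group was small, with a coefficient of variation of 9.88% in SMARCA4 cells and 9.68% in empty vector cells. The arm was 1.44-fold lower in SMARCA4 cells (log2 fold change -0.53 with SE 0.24, limma adjusted p = 0.230). Its log2 fold change lay between -0.61 and -0.45 over the 6 fits that each omit a library. The scaling moved it further, to -0.85 with equal library totals and -0.89 with quantile normalization (limma adjusted p = 0.0923 and 0.106).

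hsa-miR-30c-5p, which in liver lowers lipoprotein export by targeting MTTP, differed most among the 8 arms. It had 3619, 1905 and 3813 normalized counts in SMARCA4 replicates 1, 2 and 3, against 7618, 9482 and 7013 in empty vector replicates 1, 2 and 3. The groups did not overlap, and SMARCA4 replicate 2 was the lowest library and empty vector replicate 2 the highest. The means were 3112 ± 1050 in SMARCA4 cells and 8038 ± 1287 in empty vector cells (SD, n = 3 each), which is 2.68-fold lower on the log2(value + 1) scale (log2 fold change -1.42 with SE 0.33, limma adjusted p = 0.0656). It passed by DESeq2 (log2 fold change -1.37, adjusted p = 0.0132) and missed by edgeR (adjusted p = 0.0711). It fell by limma when SMARCA4 replicate 2 was left out, with a smaller log2 fold change of -1.10 and a smaller SE of 0.20 (adjusted p = 0.0186). Over the 17 alternatives its limma, edgeR or DESeq2 adjusted p ranged from 0.0132 to 0.189, and the log2 fold change was below 0 in each.

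hsa-miR-30e-5p, which is made in the NFYC intron together with one source of miR-30c-5p, was the next in size of difference relative to its error. Its counts were 3517, 2832 and 3374 in SMARCA4 libraries, against 6222, 5627 and 5702 in empty vector libraries. The groups lay well apart, with each SMARCA4 library below each empty vector library and a coefficient of variation of 11.2% in SMARCA4 cells and 5.54% in empty vector cells. It was 1.81-fold lower in SMARCA4 cells (log2 fold change -0.86 with SE 0.24, limma adjusted p = 0.0962). The limma adjusted p was 0.0462 without SMARCA4 replicate 2, and 0.0354 with no filter on low values, where 2.92% of all miRNAs passed. That unfiltered fit takes in 44 miRNAs at 0 in every library. It left the log2 fold change at -0.86 and changed only the SE, to 0.12. Over all alternatives the adjusted p ranged from 0.0354 to 0.259.

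hsa-miR-30b-5p, the scarcest 5p member, had 957, 404 and 864 normalized counts in SMARCA4 libraries, against 1192, 2280 and 1192 in empty vector libraries. The groups did not overlap, and the replicates numbered 2 were the extremes on both sides. The means were 742 ± 296 in SMARCA4 cells and 1555 ± 628 in empty vector cells (SD, n = 3 each), with a log2 fold change of -1.09 (SE 0.41, limma adjusted p = 0.158). It was -0.70 without SMARCA4 replicate 2 and -0.78 without empty vector replicate 2.

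**Figure D2:**
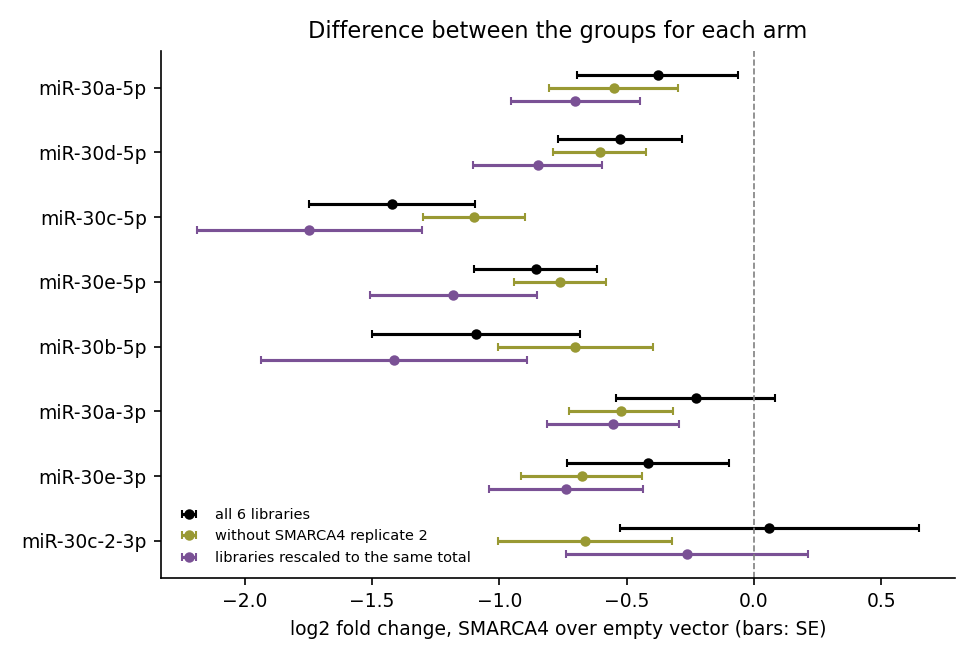
Log2 fold change of SMARCA4 over empty vector for each miR-30 arm, with bars for the standard error, from all 6 libraries (black), without SMARCA4 replicate 2 (olive) and with libraries rescaled to the same total (purple). With all 6 libraries 7 of the 8 values lie below 0, and the value of miR-30c-2-3p lies at 0.06 and below 0 in the other settings shown.

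Among the 8 members, the log2 fold changes of the 3p arms ranged from -0.42 to 0.06 and those of the 5p arms from -1.42 to -0.38. The groups overlapped for each of these 3p arms. The miR-30 3p arms outside the members lay below that 3p range, at -1.16 for miR-30d-3p, -0.46 for miR-30b-3p and -1.37 for miR-30c-1-3p. The groups of miR-30d-3p did not overlap. The contrast between 5p and 3p arms is thus described for the members only. hsa-miR-30a-3p, the partner arm of miR-30a-5p, had 1694, 3340 and 1936 normalized counts in SMARCA4 libraries, against 2325, 2988 and 2541 in empty vector libraries. SMARCA4 replicate 2 was the highest of all 6 libraries and the other SMARCA4 libraries were the lowest, and the log2 fold change was -0.23 (SE 0.31, limma adjusted p = 0.693). This value moved in both directions with single libraries: it was -0.52 without SMARCA4 replicate 2 (limma adjusted p = 0.147), -0.03 without SMARCA4 replicate 1 (adjusted p = 0.966) and -0.13 without either SMARCA4 replicate 3 or empty vector replicate 2 (adjusted p = 0.859 for both). Equal library totals gave -0.55 (limma adjusted p = 0.229).

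hsa-miR-30e-3p, which in glioma cells targets an inhibitor of NF-kappa-B, had 309, 550 and 331 normalized counts in SMARCA4 libraries, against 498, 599 and 448 in empty vector libraries. SMARCA4 replicate 2 lay inside the empty vector range and the other SMARCA4 libraries lay below it (log2 fold change -0.42 with SE 0.32, limma adjusted p = 0.455). It was -0.68 without SMARCA4 replicate 2 (limma adjusted p = 0.119), -0.26 without SMARCA4 replicate 1 (adjusted p = 0.733) and -0.74 with equal library totals (adjusted p = 0.179).

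hsa-miR-30c-2-3p, known to target the stress-response factor XBP1, was the scarcest member, with 45 reads in SMARCA4 replicate 1. It had 118, 603 and 151 normalized counts in SMARCA4 libraries, against 187, 314 and 162 in empty vector libraries. SMARCA4 replicate 2 was the highest library and the other SMARCA4 libraries the lowest. The log2 fold change was 0.06 (SE 0.59, limma adjusted p = 0.965), and it turned to -0.66 without SMARCA4 replicate 2 and to -0.26 with libraries rescaled to the same total. Once SMARCA4 replicate 2 was left out, all 8 arms were lower in SMARCA4 cells with no overlap of the groups, as were 22.9% of all miRNAs. With libraries rescaled to the same total this held for 7 of the 8 arms and 21.4% of all miRNAs.

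The other 3 arms of these hairpins were scarcer. miR-30d-3p had 94.1, 111 and 70.8 normalized counts in SMARCA4 libraries, against 260, 162 and 201 in empty vector libraries, with no overlap of the groups (log2 fold change -1.16 with SE 0.34, limma adjusted p = 0.109). Its limma adjusted p was 0.0462 without SMARCA4 replicate 2, and its DESeq2 adjusted p 0.0492. miR-30b-3p had between 5 and 22 reads and miR-30c-1-3p between 1 and 96 reads per library, and their groups overlapped. Both had log2 fold changes below 0, at -0.46 for miR-30b-3p and -1.37 for miR-30c-1-3p (limma adjusted p = 0.614 and 0.326), of which that of miR-30c-1-3p was -0.44 without SMARCA4 replicate 1, the library with 1 read. Without SMARCA4 replicate 2 the value was -0.20 for miR-30b-3p and -2.20 for miR-30c-1-3p (limma adjusted p = 0.830 and 0.0725).

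The order of the arms by mean level was nearly the same in both groups. Levels of different arms depend on how well each RNA end is ligated, so this order describes the libraries and not molecules per cell. In SMARCA4 cells it was miR-30a-5p, miR-30d-5p, miR-30e-5p, miR-30c-5p, miR-30a-3p, miR-30b-5p, miR-30e-3p and miR-30c-2-3p, and the ranges of neighbours overlapped between miR-30e-5p and miR-30c-5p, between miR-30c-5p and miR-30a-3p, between miR-30b-5p and miR-30e-3p and between miR-30e-3p and miR-30c-2-3p. In empty vector cells miR-30c-5p stood above miR-30e-5p, and no neighbouring arms overlapped. Without SMARCA4 replicate 2 the SMARCA4 libraries had this same order, again with no overlap of neighbouring arms. miR-30c-5p was then at 3619 and 3813 and miR-30e-5p at 3517 and 3374 in SMARCA4 replicates 1 and 3. The swapped order and the overlaps in SMARCA4 cells thus rested on SMARCA4 replicate 2.

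The summed 5p arms were lower in every SMARCA4 library than in any empty vector library. The sum was 72048, 92301 and 68825 normalized counts in SMARCA4 replicates 1, 2 and 3, against 94236, 142150 and 92513 in empty vector replicates 1, 2 and 3. SMARCA4 replicate 2 lay just under empty vector replicate 3, and the log2 difference was -0.48, or 1.39-fold lower (exact two-sided permutation p = 0.1, the smallest that 3 against 3 libraries allow). This sum is carried by miR-30a-5p, and the log2 difference was -0.28 without empty vector replicate 2, -0.61 without SMARCA4 replicate 2 and -0.80 with equal library totals.

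As a share of all listed miRNAs, which does not depend on the scaling factors, the 5p arms held 3.93%, 3.0% and 3.80% in SMARCA4 libraries, against 5.67%, 8.0% and 5.24% in empty vector libraries. The groups were apart, at 3.58% ± 0.50 in SMARCA4 cells and 6.30% ± 1.49 in empty vector cells (SD, n = 3 each; exact two-sided permutation p = 0.1). The large let-7 share of SMARCA4 replicate 2 lowers every other share there. With the let-7 and miR-98 5p arms left out of the total, a choice made after seeing the data, the miR-30 5p arms held 4.2%, 3.80% and 4.07% in SMARCA4 libraries, against 6.13%, 8.59% and 5.68% in empty vector libraries, again with no overlap.

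**Figure D3:**
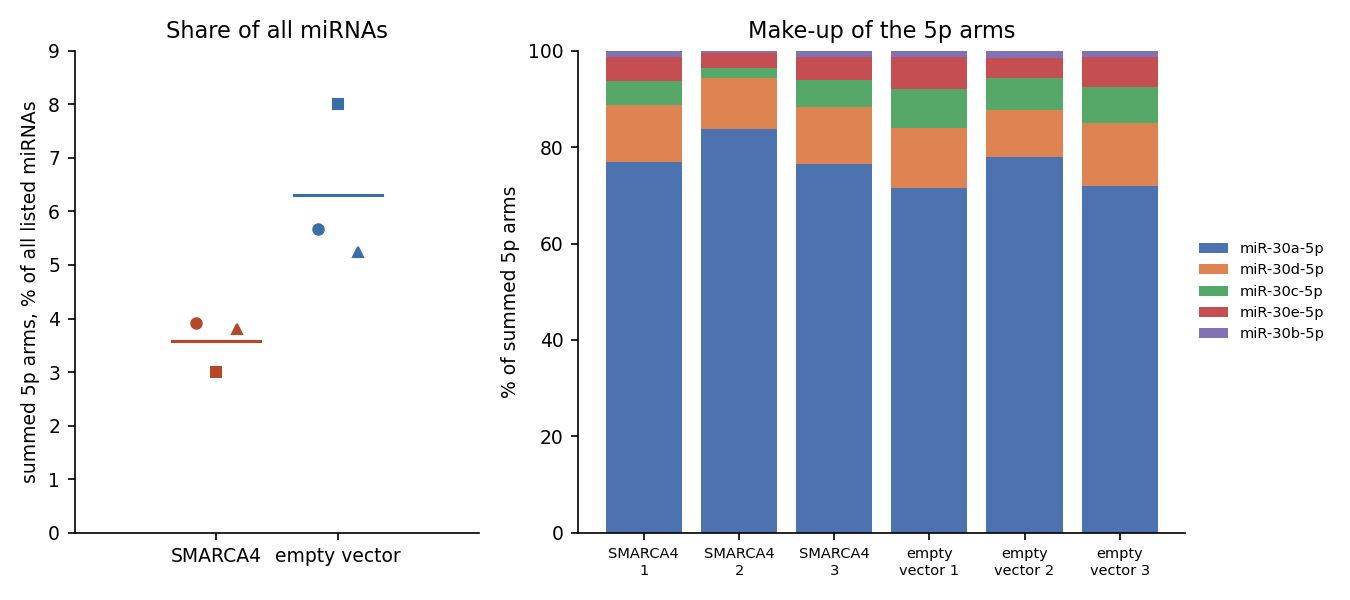
Left, the summed miR-30 5p arms as a percentage of all listed miRNAs in each SMARCA4 (red) and empty vector (blue) library, with lines at group means; right, bars of the percentage of that sum held by each 5p arm. The SMARCA4 libraries lie between 3.0% and 3.93% and the empty vector libraries between 5.24% and 8.0%, and miR-30a-5p is the largest part in each library.

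Of the 5 shares of the summed 5p arms, that of miR-30c-5p was the one whose groups did not overlap. miR-30c-5p made up 5.02%, 2.06% and 5.54% of the summed 5p arms in SMARCA4 libraries, against 8.08%, 6.67% and 7.58% in empty vector libraries. Each SMARCA4 library lay below each empty vector library, with a difference of -3.24 percentage points. By exact permutation the two-sided p was 0.1, the smallest possible, and 0.48 when adjusted over the 8 ratios and shares compared. The difference was -2.16 percentage points without SMARCA4 replicate 2.

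miR-30a-5p took 77.0%, 83.8% and 76.5% of the summed 5p arms in SMARCA4 libraries, against 71.4%, 77.9% and 71.9% in empty vector libraries. The replicates numbered 2 had the highest share in either group, and the groups overlapped through empty vector replicate 2 (exact permutation p = 0.3, adjusted p = 0.48). Its mean share was 79.1% in SMARCA4 cells and 73.7% in empty vector cells, the widest difference of the 5 shares at 5.36 percentage points, which was 3.0 without SMARCA4 replicate 2. The shares of miR-30e-5p, miR-30d-5p and miR-30b-5p also overlapped between the groups, with mean differences of -1.29, -0.45 and -0.38 percentage points (exact permutation p = 0.3, 0.6 and 0.4). Without SMARCA4 replicate 2 these differences were -0.68, -0.06 and -0.09 percentage points, and over all 6 omissions of a library they ranged from -2.10 to -0.68 for miR-30e-5p, from -1.42 to 0.14 for miR-30d-5p and from -0.54 to -0.09 for miR-30b-5p. Read numbers limited these shares little, with 95% Wilson intervals of at most ± 0.497 percentage points in any library, which cover counting error only.

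The ratio of 5p to 3p arm was computed within each library and so does not depend on scaling. miR-30a-5p over miR-30a-3p was 32.8, 23.2 and 27.2 in SMARCA4 libraries, against 29, 37.0 and 26.2 in empty vector libraries. The groups overlapped (exact two-sided permutation p = 0.6, adjusted p = 0.6), and the log2 difference of -0.15 was -0.03 without SMARCA4 replicate 2 and ranged from -0.28 to -0.01 over all 6 omissions of a library. miR-30e-5p over miR-30e-3p was 11.4, 5.15 and 10.2 in SMARCA4 libraries, against 12.5, 9.39 and 12.7 in empty vector libraries. These also overlapped, with SMARCA4 replicate 2 lowest (exact permutation p = 0.3, adjusted p = 0.48), and the log2 difference was -0.44 with all 6 libraries and -0.08 without SMARCA4 replicate 2.

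The widest difference in ratio was for miR-30c. miR-30c-5p over miR-30c-2-3p was 30.8, 3.16 and 25.2 in SMARCA4 libraries, against 40.8, 30.2 and 43.3 in empty vector libraries. SMARCA4 replicate 1 lay just above empty vector replicate 2 and SMARCA4 replicate 2 lay far below all others (exact permutation p = 0.2, adjusted p = 0.48). The log2 difference was -1.48 with all 6 libraries and -0.44 without SMARCA4 replicate 2. SMARCA4 replicate 2, the library with the most reads, had the lowest of the 6 values of each of these ratios, and the part of depth in this was not tested.

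**Figure D4:**
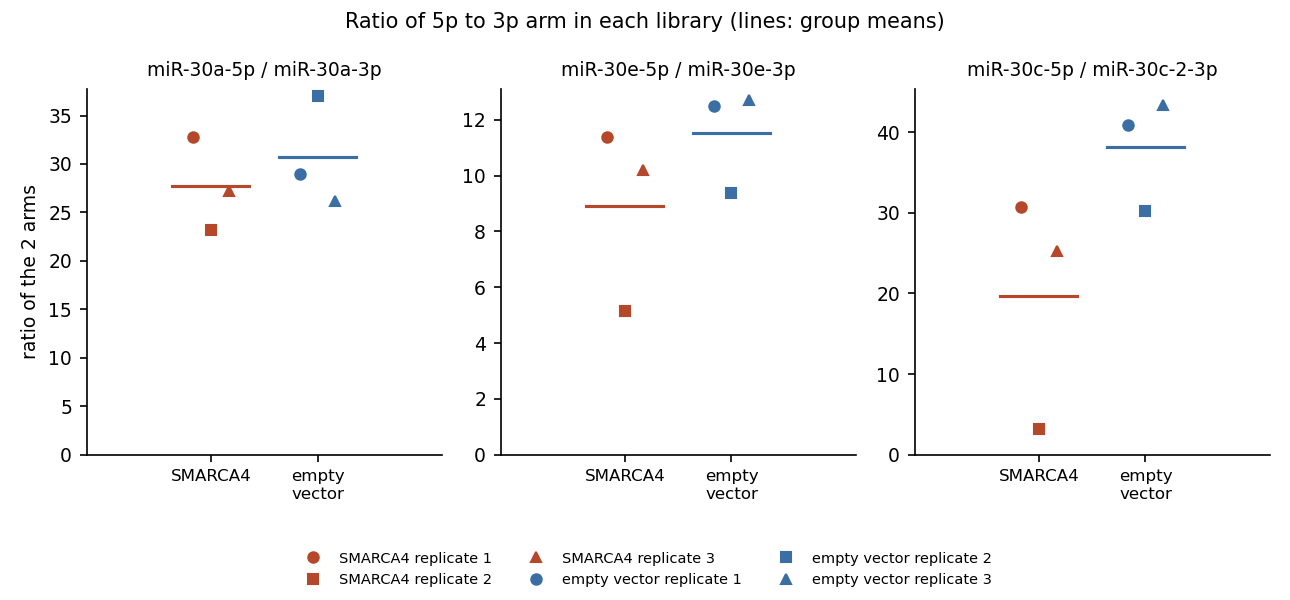
Ratio of the 5p to the 3p arm for miR-30a, miR-30e and miR-30c in each SMARCA4 (red) and empty vector (blue) library, with lines at group means and axes from 0. SMARCA4 replicate 2, the red square, is the lowest point in each panel, at 23.2, 5.15 and 3.16.

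The arms were then compared by their profiles over the libraries. Likeness was measured as the root mean square difference of the centred log2(value + 1) values over the 6 libraries, which share their library scaling, so a small value describes a like profile only. miR-30a-3p and miR-30e-3p, the 3p arms that differ by G18A, were the most alike of the 28 pairs of arms at 0.13, and differed by 0.12 without SMARCA4 replicate 2, a comparison added after seeing the data. Most of the wider differences rested on SMARCA4 replicate 2. miR-30c-2-3p and miR-30c-5p, which share the hairpin MIR30C2, differed by 1.29 over all 6 libraries, the largest value of any pair, and by 0.29 over the other 5 libraries, where miR-30b-5p and miR-30e-5p differed most at 0.38. miR-30b-5p and miR-30c-5p, which share no hairpin pair, were the nearest member to each other at 0.27, both low in SMARCA4 replicate 2 and high in empty vector replicate 2. Without SMARCA4 replicate 2 they differed by 0.29, among the larger values, and miR-30b-5p was then nearest to miR-30a-5p at 0.11. Arms of the same hairpin differed by 0.22 for miR-30a and 0.44 for miR-30e, and by 0.18 and 0.17 without SMARCA4 replicate 2.

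**Figure D5:**
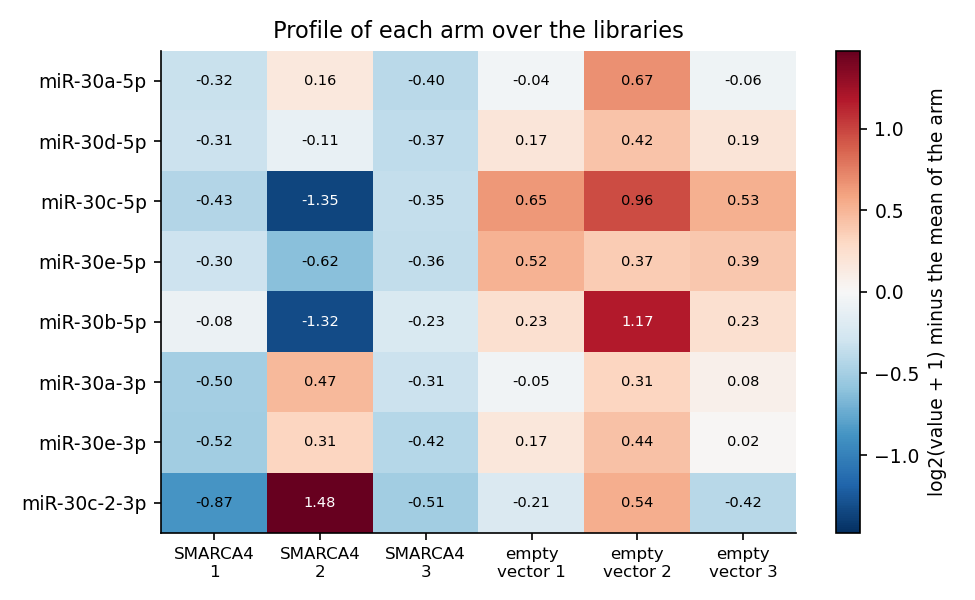
Centred log2(value + 1) of each miR-30 arm (rows) in each library (columns, SMARCA4 left of empty vector), with red above and blue below the mean of the arm. In SMARCA4 replicate 2 miR-30c-5p and miR-30b-5p are at -1.35 and -1.32 while miR-30c-2-3p is at 1.48.

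Among 410 other miRNAs with a mean of at least 10 normalized counts, those nearest to the mean profile of the 5p arms were miR-561-5p, miR-671-5p and miR-1185-1-3p, at root mean square differences of 0.18, 0.19 and 0.22, against a median of 0.77 over these miRNAs. miR-561-5p had 186, 204 and 227 normalized counts in SMARCA4 libraries, against 338, 426 and 389 in empty vector libraries (limma adjusted p = 0.109). miR-671-5p and miR-1185-1-3p were scarce, at no more than 26.1 and 9.44 normalized counts in SMARCA4 libraries, where 3 reads equal 7.84 in SMARCA4 replicate 1. These ranks changed without SMARCA4 replicate 2, where miR-21-5p, miR-181c-3p and miR-101-3p were nearest at 0.09, 0.11 and 0.12, against a median of 0.60, and miR-561-5p ranked 7 at 0.17. The single nearest miRNA to a member was the same without that library for 2 of the 8 arms, miR-101-3p for miR-30a-5p and miR-4775 for miR-30e-3p.

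Other families and lists are set beside the miR-30 arms by counts and medians only. The miR-29 family, which targets collagen genes, had 6 of 6 members lower in SMARCA4 cells, with a median log2 fold change of -0.85 and 0 past the test, and 4 of 6 lower with a median of -0.75 without SMARCA4 replicate 2. The let-7 and miR-98 5p arms, which repress growth genes such as HMGA2, had 9 of 9 members higher, with a median of 0.75 and 0 past the test. Without SMARCA4 replicate 2 they had 5 higher and 4 lower, with a median of 0.10 and 0 past the test. Of the 6 epithelial miRNAs tested, 4 were higher and 2 lower, with a median of 0.96. Without SMARCA4 replicate 2, 5 were higher and 1 lower, with a median of 1.07. With all libraries, miR-141-3p and miR-203a-3p of this list rose with SMARCA4 (limma adjusted p = 0.0124 for both). miR-203a-3p had 2, 3 and 3 reads in empty vector replicates 1, 2 and 3, so the size of its change is uncertain. The most abundant of the list, miR-200b-3p, had a log2 fold change of -1.14 (limma adjusted p = 0.109). Of the 9 mesenchymal and TGF-beta linked miRNAs, 5 were tested, 3 were higher, 2 were lower and 0 passed, with the most abundant, miR-21-5p, at -0.30 (limma adjusted p = 0.645) and at -0.60 without SMARCA4 replicate 2 (adjusted p = 0.147), where 1 of the 5, miR-10b-5p, rose with a log2 fold change of 1.03 (adjusted p = 0.0366). The blood cell miRNAs had 3 of 3 tested members higher and 0 past the test, with miR-486-5p at 0.61 (limma adjusted p = 0.257) and at 0.33 without SMARCA4 replicate 2. Whether the miR-30 arms differ from any of these lists was not tested.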

How the data were processed

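Small RNA libraries (TruSeq small RNA kit, per the labels' protocols) of 3 SMARCA4 and 3 empty vector A549 samples were analysed. The submitters' processing notes name bcl2fastq 2.18.0.12 and the build GRCh38; aligner, counting and annotation are not stated in the sources used here. The deposited values are a normalized signal, a read count per mature miRNA times 1 factor per library. All values (100%) were whole multiples of 1 read within 1e-06 reads, so reads were recovered; 3 reads equal 1.27 to 7.84 normalized counts. The main test was limma 3.58.1 (R 4.3.3) on log2(value + 1) with a mean-variance trend, over 637 miRNAs with a mean of at least 1 over the 6 libraries, Benjamini-Hochberg adjusted with a threshold of 0.05; a fold change on this scale understates the change of scarce miRNAs. edgeR 4.0.16 and DESeq2 1.42.0 (212 adjusted p-values undefined) were run on the recovered reads. Sums, shares and ratios were compared by exact two-sided permutation tests, with the 8 ratios and shares adjusted together. The tools were run on simulated counts with larger changes than those of the miR-30 arms and no outlying library. That run therefore does not measure their power or error for the miR-30 arms. Hairpin positions come from GENCODE 29. Named were the 8 members, the other arms of their hairpins, the miRNAs of nearest profile and, of each list, the most abundant member and any that passed. Members and lists were chosen with earlier results of these data known.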

Additional observations from a re-analysis of the deposited data

How the results depend on the processing

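Over the 17 alternatives (pseudocount, filter, scaling, limma without the trend, edgeR, DESeq2, replicate block, each library left out), 128 of the 136 values of the 8 arms kept their direction and their side of the threshold. The number of arms past the threshold was 0 with all libraries, 1 with no filter on low values (miR-30e-5p), 1 by DESeq2 (miR-30c-5p) and 0 to 2 with any 1 library left out, where 2 passed without SMARCA4 replicate 2. With all libraries 3 arms had an unadjusted p under 0.05. miR-30c-2-3p turned from 0.06 to -0.26 with libraries rescaled to the same total, to -0.66 without SMARCA4 replicate 2, to -0.03 without empty vector replicate 1 and to -0.13 without empty vector replicate 3, and ranged from -0.66 to 0.51 with any 1 library left out; the cause was not tested. The number of arms without overlap was 4 as deposited, 7 with libraries rescaled to the same total (21.4% of all miRNAs did not overlap with lower SMARCA4 values) and 4 to 8 with any 1 library left out. That rescaling shifted the median over all miRNAs by -0.26 (log2), and relative to that median the arms lay at -0.49, against -0.42 as deposited. Quantile normalization gave a median of -0.86 over the 8 arms, the cause of which was not tested. The difference in the share of miR-30d-5p was -0.45 percentage points and 0.14 without empty vector replicate 3 (-1.42 to 0.14 with any 1 library left out); the other 55 values of ratios and shares kept their direction. The log2 difference of the summed 5p arms reached -0.80 with equal library totals and lay between -0.61 and -0.28 with any 1 library left out. With the replicate block, 0 arms and 13 miRNAs in all passed, against 9 without it. Over all miRNAs tested, libraries with the same number did not deviate together (correlations of 0.07, 0.09 and 0.01), so the numbers were not taken as pairs. Every library but SMARCA4 replicate 3 correlated best with its own number, a hint from the data only. The replicates numbered 2 were highest in both groups for miR-30a-5p, miR-30a-3p, miR-30c-2-3p, miR-30d-5p and miR-30e-3p, and lowest in both for miR-30e-5p. They were opposite extremes for miR-30b-5p and miR-30c-5p. With the block the limma SE went from 0.32 to 0.20 for miR-30a-5p and from 0.24 to 0.17 for miR-30d-5p. It went from 0.41 to 0.44 for miR-30b-5p and was lower for each other arm. Depth limits the scarce 3p arms most.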
